A study of Mus musculus with 6 samples.

Results

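The transcripts described here encode proteases of the mitochondrial matrix and inner membrane, compared between MA-10 cells and STARKO1 cells. The members were chosen by gene symbol as proteases that cut or degrade proteins imported into mitochondria, without a rule on their values. Earlier results of these data were known when they were chosen. All 10 were found among the 14774 genes of the deposited table. MA-10 is a mouse tumor Leydig cell line, wild type for Star and measured here in 3 untreated libraries. STARKO1 is a single clone of MA-10 cells, grown from 1 sorted cell after CRISPR/Cas9 targeting of exon 2 of Star, and was also measured untreated in 3 libraries. Because STARKO1 is 1 clone, the loss of Star cannot be told apart from other differences that the clone carries. Nothing in the labels says that the 3 libraries of a cell line came from separate cultures, so p-values measure only the spread between these libraries, which may be technical.

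Most mitochondrial proteins are made in the cytosol with an N-terminal targeting sequence, which the mitochondrial processing peptidase removes in the matrix. STAR, the steroidogenic acute regulatory protein, is one such protein, and after import and cleavage it is degraded inside the organelle, in part by the ATP-dependent protease LONP1. Matrix quality control rests on LONP1 and on the CLPP peptidase with its unfoldase CLPX, while the inner membrane carries the AAA proteases of AFG3L2 and paraplegin (Spg7) and of YME1L1, together with the rhomboid protease PARL. HTRA2 is a serine protease of the intermembrane space.

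No transcript of the 10 proteases differed between the cell lines at an adjusted p under 0.05 in edgeR's quasi-likelihood test, against 9.04% of the 11939 genes tested. All 10 passed the filter on low counts. Lonp1 was the most abundant of them in both cell lines. The 95% intervals of the 10 fold changes reached at the lowest to 0.336 (Parl) and at the highest to 2.02 (Afg3l2) times the MA-10 level, and all but that of Clpx included no difference. At an unadjusted p under 0.05 in the same test there was 1 gene, Clpx, lower in STARKO1 cells, against 37.6% of all genes tested. With DESeq2 there were 2 at an adjusted p under 0.05, Clpx (lower) and Pmpcb (higher), against 28.4% of all genes. The median log2 fold change was -0.22 over the 10 genes and -0.05 over all genes tested.

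The MA-10 libraries differed more among themselves than the STARKO1 libraries did. Total counts lay between 14114351 and 19530062 per library, and 7SL RNA, the RNA component of the signal recognition particle, took between 1.81% and 14.4% of the counts in MA-10 libraries and between 1.82% and 2.37% in STARKO1 libraries. The lowest share among MA-10 libraries was that of replicate 1, which lay close to the STARKO1 libraries. For 7 of the 10 proteases, MA-10 replicate 1 was nearer to the STARKO1 mean than to the mean of MA-10 replicates 2 and 3 (log2 of CPM + 1), and this was also so for 69.6% of all genes tested. CPM is the count scaled to a common library size after TMM normalization, on which 3 counts equal between 0.129 and 0.264 CPM. Values of single libraries are given in the order of replicates 1, 2 and 3. The coefficient of variation over 3 libraries had a median of 23.6% in MA-10 cells and 3.03% in STARKO1 cells for the 10 proteases, and was larger in MA-10 cells for all 10. Without MA-10 replicate 1, 5 of the 10 passed an adjusted p of 0.05 (edgeR), with Pmpcb and Afg3l2 higher and Clpx, Htra2 and Parl lower in STARKO1 cells, against 65.7% of all genes tested. The part of 7SL RNA content in these differences was not tested.

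Star, the targeted gene and itself a substrate of these proteases, had 60.9, 109 and 61.4 CPM in the MA-10 libraries and 2.06, 2.71 and 2.02 CPM in the STARKO1 libraries. This corresponds to -5.09 on the log2 scale (standard error 0.331, edgeR adjusted p = 0.00121). The 8 Leydig cell markers examined, which include Cyp11a1 and Nr5a1, were all in the table. Their log2 fold changes were positive for 3 and negative for 5. Of the 8 markers Hsd3b1 alone passed the threshold (-2.52, edgeR adjusted p = 0.00268), against 9.04% of all genes tested. Cyp11a1 had 835 ± 259 CPM in MA-10 and 439 ± 9.95 CPM in STARKO1 libraries (SD, n = 3 each, edgeR adjusted p = 0.0670), and Nr5a1 had 472 ± 90.9 and 633 ± 22.8 CPM (SD, n = 3 each, edgeR adjusted p = 0.189). The summed level of all 8 Leydig cell markers was between 1559 and 2037 CPM in MA-10 libraries and between 1497 and 1541 CPM in STARKO1 libraries. Of markers of other cells, 2 of 4 for Sertoli cells had rows, with sums of 333 to 524 CPM in MA-10 and 565 to 589 CPM in STARKO1 libraries, nearly all of it from Rhox5. For endothelial cells 2 of 3 had rows, summing to between 26.4 and 41.5 CPM and between 118 and 124 CPM, nearly all from Cdh5, which was higher in STARKO1 cells (log2 fold change 1.84, edgeR adjusted p = 0.00596). The sums for germ cells (1 of 3), macrophages (2 of 4) and fibroblasts or peritubular cells (1 of 4) were at most 3.55, 9.85 and 0.969 CPM in any library. The part of these markers in the results was not tested.

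The start regions of 5 of the genes are shown, those of Pmpca with Pmpcb, Clpp with Clpx, and Lonp1, the most abundant. Spg7 and Afg3l2 also form a pair compared below, but the window of Spg7 is not shown. Each is a RefSeq window on GRCm38.p6 from 250 bases before to 50 bases after the annotated start, read 5′ to 3′ on the gene's strand, and capitals mark matches to any of the motifs searched. Windows were found for 8 of the 10 genes, and none for Afg3l2 and Htra2. Pmpca lies at chr2:26389098-26389397 and Pmpcb at chr5:21736910-21737209, both on the plus strand. Clpp lies at chr17:56990014-56990313 and Clpx at chr9:65294010-65294309, both on the plus strand, and Lonp1 at chr17:56626854-56627153 on the minus strand.
Pmpca: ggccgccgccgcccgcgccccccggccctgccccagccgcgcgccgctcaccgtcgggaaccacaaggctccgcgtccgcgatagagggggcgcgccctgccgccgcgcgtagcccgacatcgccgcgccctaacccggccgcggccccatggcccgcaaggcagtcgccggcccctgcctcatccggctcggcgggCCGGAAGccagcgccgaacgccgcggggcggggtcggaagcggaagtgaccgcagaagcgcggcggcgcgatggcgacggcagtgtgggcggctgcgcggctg
Pmpcb: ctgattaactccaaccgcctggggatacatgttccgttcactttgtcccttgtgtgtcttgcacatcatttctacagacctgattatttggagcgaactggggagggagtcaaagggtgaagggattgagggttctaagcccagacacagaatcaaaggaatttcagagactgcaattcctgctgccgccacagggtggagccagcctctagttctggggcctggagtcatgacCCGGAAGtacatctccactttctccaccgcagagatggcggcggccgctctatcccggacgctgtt
Clpp: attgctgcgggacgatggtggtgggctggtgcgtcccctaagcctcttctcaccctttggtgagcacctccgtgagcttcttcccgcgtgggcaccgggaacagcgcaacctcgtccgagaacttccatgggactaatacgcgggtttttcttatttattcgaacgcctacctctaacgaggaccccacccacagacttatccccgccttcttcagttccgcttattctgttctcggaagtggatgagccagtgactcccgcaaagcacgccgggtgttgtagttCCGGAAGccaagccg
Clpx: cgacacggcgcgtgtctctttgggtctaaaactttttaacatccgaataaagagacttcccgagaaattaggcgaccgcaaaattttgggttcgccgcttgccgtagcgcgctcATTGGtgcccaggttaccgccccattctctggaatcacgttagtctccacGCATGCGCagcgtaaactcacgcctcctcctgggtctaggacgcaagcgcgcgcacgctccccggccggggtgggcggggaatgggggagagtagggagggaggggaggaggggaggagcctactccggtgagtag
Lonp1: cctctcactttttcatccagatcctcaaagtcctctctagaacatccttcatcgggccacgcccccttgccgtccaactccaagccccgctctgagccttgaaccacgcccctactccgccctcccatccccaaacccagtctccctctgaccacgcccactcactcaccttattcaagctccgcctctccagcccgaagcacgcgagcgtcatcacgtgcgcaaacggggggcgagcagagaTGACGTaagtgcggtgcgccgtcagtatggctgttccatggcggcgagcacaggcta

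The motifs were searched on both strands and were chosen after the sequences had been read. The ETS motif CCGGAAG was in 5 of the 8 windows (Clpp, Yme1l1, Pmpca, Pmpcb and Parl), against 8.86% of all 32851 windows of the same length. The window of Yme1l1 held 3 matches and the other windows 1 each. The NRF1 motif GCATGCGC was in that of Clpx, against 2.71% of all windows, and the CRE core TGACGT in that of Lonp1, against 7.51%. CCAAT boxes (CCAAT) were in the windows of Clpx and Yme1l1, against 37.4%, and that of Spg7 held no match to any of the 4 motifs. The GC content was between 52.3% (Parl) and 80.3% (Pmpca) in the 8 windows, and its median over all windows was 52.7%. These matches are letters in a sequence and were not tied to the RNA levels.

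The processing peptidase consists of a catalytic subunit, encoded by Pmpcb, and a substrate-binding subunit, encoded by Pmpca. Pmpcb (chromosome 5 of GRCm38, 21737141 to 21757153, plus strand) had 126, 134 and 122 CPM in the MA-10 libraries and 163, 160 and 158 CPM in the STARKO1 libraries. Every STARKO1 library was above every MA-10 library. The means were 127 ± 5.99 and 160 ± 2.53 CPM (SD, n = 3 each). On the log2 scale the difference was 0.33 (95% interval -0.02 to 0.68, standard error 0.146, edgeR adjusted p = 0.147), and the adjusted p was 0.0392 with DESeq2 and 0.00895 (edgeR) without MA-10 replicate 1. Of the 10 proteases, Pmpcb had the smallest coefficient of variation in MA-10 cells, 4.70%.

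Pmpca (chromosome 2, 26389339 to 26397123, plus strand) had 149, 183 and 145 CPM in the MA-10 libraries and 170, 180 and 170 CPM in the STARKO1 libraries. The ranges overlapped, with MA-10 replicate 2 above all STARKO1 libraries. Its log2 fold change was 0.13 (95% interval -0.27 to 0.52, edgeR adjusted p = 0.596), with values from 0.06 without MA-10 replicate 3 to 0.24 without MA-10 replicate 2. It was 0.23 without STARKO1 replicate 1, 0.28 with upper quartile scaling and 0.59 with scaling by library size alone. Of the 4282 annotated exon bases of Pmpca, 874 are shared with Inpp5e on the opposite strand, and the sources used here do not say whether reads were counted by strand.

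LONP1 is the ATP-dependent protease that degrades damaged matrix proteins and binds mitochondrial DNA. Lonp1 (chromosome 17, 56614297 to 56626888, minus strand) had 1388, 631 and 777 CPM in the MA-10 libraries and 818, 837 and 790 CPM in the STARKO1 libraries. The STARKO1 libraries lay inside the range of the MA-10 libraries, which was set by replicate 1 at the top. The means were 932 ± 402 CPM in MA-10 and 815 ± 23.5 CPM in STARKO1 (SD over 3 libraries each). The difference on the log2 scale was -0.19 (95% interval -0.97 to 0.58, edgeR adjusted p = 0.676). Without MA-10 replicate 1 it changed direction, to 0.30 (95% interval -0.02 to 0.62, adjusted p = 0.0927), and it was 0.13 with scaling by library size alone.

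CLPP is the peptidase chamber of the second matrix protease, and CLPX unfolds substrates and feeds them into it. Clpp (chromosome 17, 56990305 to 56996189, plus strand) had 52.1, 57.2 and 49.0 CPM in the MA-10 libraries and 42.4, 43.8 and 44.7 CPM in the STARKO1 libraries. All STARKO1 libraries were below all MA-10 libraries. Clpp differed by a log2 fold change of -0.27 (95% interval -0.61 to 0.06, edgeR adjusted p = 0.198). It was -0.05 with offsets for gene length and 0.17 with scaling by library size alone. Clpp had the shortest annotated transcript of the 10, 983 bases for its longest protein-coding form, and was the only one with whole values in every library (within 1e-09). It lies 363 kb from Lonp1 on chromosome 17.

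Clpx (chromosome 9, 65294260 to 65330659, plus strand) had 41.5, 52.9 and 54.0 CPM in the MA-10 libraries and 35.8, 34.0 and 33.5 CPM in the STARKO1 libraries. Its counts were 725, 610 and 613 in MA-10 and 832, 576 and 596 in STARKO1 cells. The groups did not overlap, and MA-10 replicate 1 was the nearest to the STARKO1 libraries. The means were 49.5 ± 6.91 and 34.4 ± 1.22 CPM (SD, n = 3 each), 1.44-fold higher in MA-10 cells. For Clpx the log2 fold change was -0.52 (95% interval -0.91 to -0.14, standard error 0.163, edgeR adjusted p = 0.0767), the smallest adjusted p among the 10. The adjusted p was 0.0335 with DESeq2 and 0.00222 (edgeR) without MA-10 replicate 1, whereas with scaling by library size alone the log2 fold change was -0.05. That scaling moved the median of all genes by 0.43.

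AFG3L2 and paraplegin form the AAA protease whose active site faces the matrix, which matures the ribosomal protein MRPL32. Afg3l2 (chromosome 18, 67404764 to 67449173, minus strand) had 136, 68.8 and 128 CPM in the MA-10 libraries and 142, 143 and 146 CPM in the STARKO1 libraries. The STARKO1 libraries were all above the MA-10 libraries, with replicates 1 and 3 of MA-10 close to them and replicate 2 far below. Its log2 fold change was 0.38 (95% interval -0.26 to 1.01, edgeR adjusted p = 0.325), 0.12 without MA-10 replicate 2 and 0.63 without MA-10 replicate 1. Afg3l2 had values that were not whole, as did 54.2% of all genes, and its paralog Afg3l1 is also expressed in these cells. Whether reads were split between Afg3l2 and Afg3l1 was not tested.

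Spg7 (chromosome 8, 123062942 to 123097761, plus strand) had 78.8, 126 and 101 CPM in the MA-10 libraries and 97.4, 91.4 and 101 CPM in the STARKO1 libraries. The STARKO1 libraries lay within the MA-10 range. For Spg7 the log2 fold change was -0.08 (95% interval -0.56 to 0.41, edgeR adjusted p = 0.800), and its sign turned in 4 of the 13 alternatives, 2 of which left out a library.

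YME1L1, the AAA protease that faces the intermembrane space, processes OPA1. Yme1l1 (chromosome 2, 23156369 to 23199261, plus strand) had 143, 162 and 237 CPM in the MA-10 libraries and 152, 155 and 149 CPM in the STARKO1 libraries. Replicate 3 of MA-10 stood above the other 5 libraries, which overlapped. Its log2 fold change was -0.25 (95% interval -0.78 to 0.28, edgeR adjusted p = 0.429), and -0.01 without MA-10 replicate 3.

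PARL is the rhomboid protease that cuts PINK1 and PGAM5 within the inner membrane. Parl (chromosome 16, 20279818 to 20302388, minus strand) had 31.6, 91.7 and 62.0 CPM in the MA-10 libraries and 37.3, 35.8 and 39.1 CPM in the STARKO1 libraries. Replicate 1 of MA-10 was below the STARKO1 libraries, and replicates 2 and 3 were above them. The means were 61.7 ± 30.1 and 37.4 ± 1.63 CPM (SD, n = 3 each), and the log2 fold change of -0.72 (95% interval -1.57 to 0.13, edgeR adjusted p = 0.183) had the largest size among the 10. Without MA-10 replicate 1 it was -0.94 (edgeR adjusted p = 0.000982), and without MA-10 replicate 2 it was -0.32 (adjusted p = 0.482). With scaling by library size alone it was -0.14.

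HTRA2 is released to the cytosol in apoptosis, where it binds inhibitor of apoptosis proteins. Htra2 (chromosome 6, 83051266 to 83055274, minus strand) had 21.6, 29.8 and 35.6 CPM in the MA-10 libraries and 19.7, 20.8 and 21.3 CPM in the STARKO1 libraries. The groups did not overlap, but the highest STARKO1 library was close below MA-10 replicate 1. For Htra2 the log2 fold change was -0.49 (95% interval -0.99 to 0.01, edgeR adjusted p = 0.138), and the adjusted p was 0.00470 without MA-10 replicate 1. It was -0.32 without MA-10 replicate 3 and -0.00 with scaling by library size alone. Its exons overlap those of Aup1 by 753 bases and of Loxl3 by 535 bases on the opposite strand, out of 2946.

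**Figure D1:**
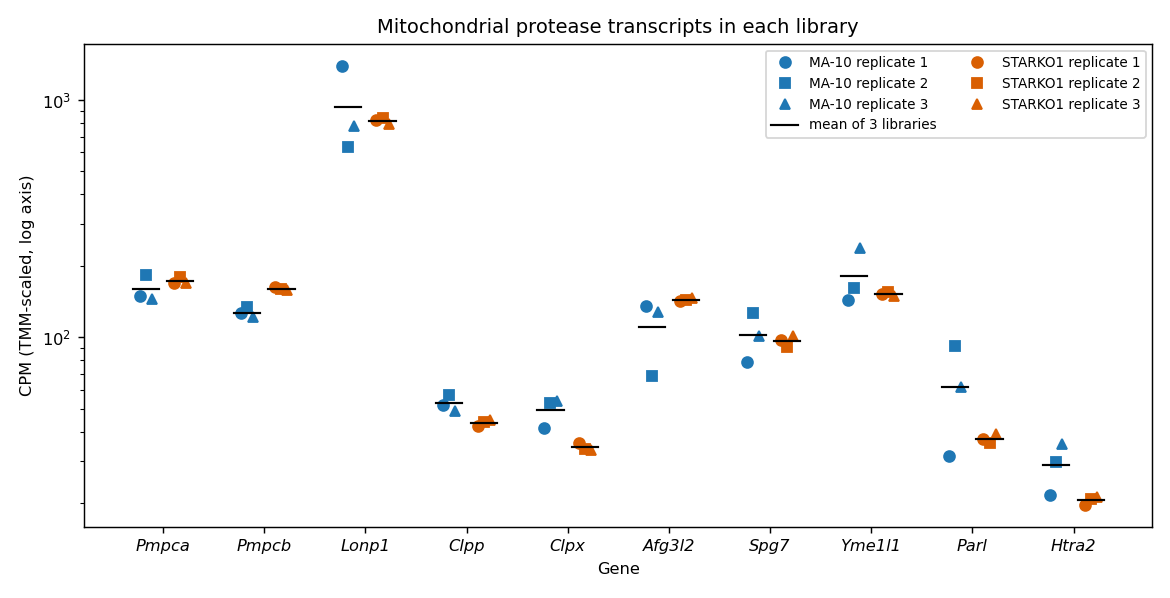
CPM (TMM-scaled, log axis) of each of the 10 protease genes in each of the 6 libraries, with blue symbols for MA-10, orange for STARKO1, shapes for the replicate number and black lines for the mean of 3 libraries. The STARKO1 libraries lie close together for every gene, while the MA-10 libraries of Lonp1 spread from 631 to 1388 CPM and those of Parl from 31.6 to 91.7 CPM.

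In all, the libraries of the cell lines did not overlap for 5 of the 10 proteases (Clpp, Clpx, Afg3l2, Pmpcb and Htra2), against 42.5% of all genes tested. The log2 fold change was positive for 3 (Pmpca, Pmpcb and Afg3l2) and negative for 7. With scaling by library size alone, those of Lonp1, Clpp, Spg7 and Yme1l1 turned positive, along with the shift of all genes.

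**Figure D2:**
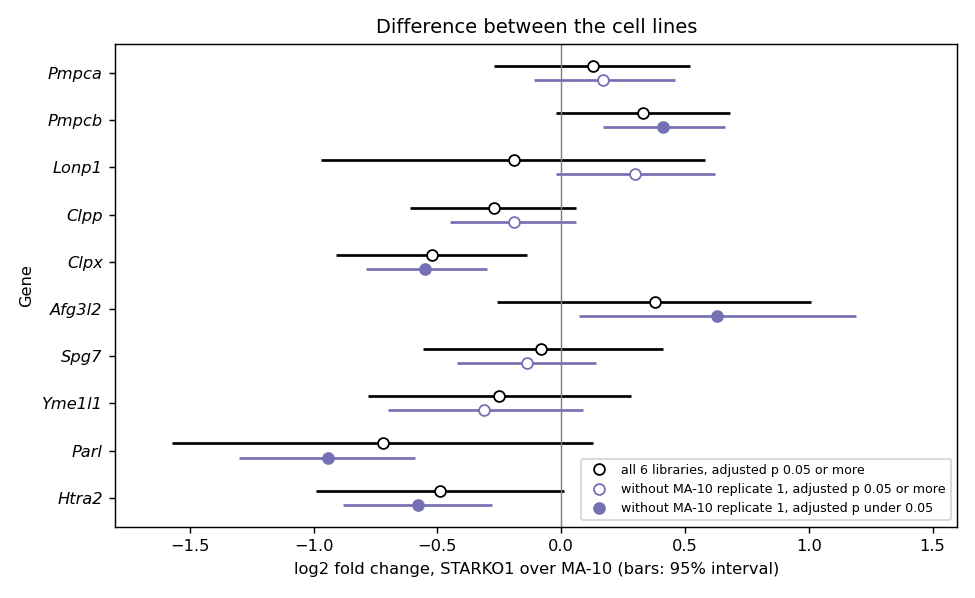
The log2 fold change (STARKO1 over MA-10) of the 10 protease genes with 95% intervals, in black from all 6 libraries and in purple without MA-10 replicate 1. Filled points have an adjusted p under 0.05 in edgeR's test, and there are 5 of them without that library and 0 with it.

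To compare levels between genes, CPM were divided by the length in kb of the longest annotated protein-coding transcript. In STARKO1 cells Lonp1 had 276 ± 7.97 CPM per kb (SD, n = 3), Pmpcb 99.2 ± 1.57 and Pmpca 55.2 ± 1.75. Afg3l2 with 46.5, Clpp with 44.4, Spg7 with 33.4, Yme1l1 with 32.3 and Parl with 27.6 CPM per kb followed, and Htra2 with 12.0 and Clpx with 11.9 CPM per kb were the lowest. The libraries of Spg7 and Yme1l1 overlapped in this order, as did those of Htra2 and Clpx, and the other neighbours did not. In MA-10 cells Lonp1 (316 ± 136 CPM per kb) and Pmpcb (78.9 ± 3.71 CPM per kb, SD, n = 3 each) were again the highest, and Clpx (17.1) and Htra2 (16.8 CPM per kb) the lowest, while the 6 genes between them overlapped with their neighbours. Lonp1 made up between 34.7% and 58.8% of the summed CPM per kb of the 10 genes in the 6 libraries. When the union of all annotated exons was used as the length, Lonp1 stayed first with 186 CPM per kb in STARKO1 cells, and Pmpca (40.4) and Clpp (35.7) came before Pmpcb (31.2).

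The ratio of partner genes within a library does not depend on the factor by which the whole library is scaled. Differences between libraries that vary with gene length do not cancel in it, and the ratios were not computed with gene length offsets. The ratio of Pmpcb to Pmpca counts was 0.844, 0.733 and 0.846 in the MA-10 libraries, and it was 0.958, 0.891 and 0.928 in the STARKO1 libraries. The 3 STARKO1 libraries were all above the 3 MA-10 libraries, including replicate 1. The difference of the mean log2 ratios was 0.20 (exact permutation test, two-sided, p = 0.1, which is the smallest that 3 against 3 libraries allow, and 0.3 after adjustment over 3 ratios). The difference was 0.23 without MA-10 replicate 1.

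The ratio of Clpp to Clpx was 1.26, 1.08 and 0.907 in the MA-10 replicates and 1.18, 1.29 and 1.34 in the STARKO1 replicates, with overlap and a difference of 0.24 on the log2 scale (exact permutation test, two-sided, p = 0.2, adjusted 0.3). The ratio of Spg7 to Afg3l2 was 0.580, 1.83 and 0.790 in the MA-10 replicates and 0.685, 0.639 and 0.691 in the STARKO1 replicates. MA-10 replicate 2 was the only library with more Spg7 than Afg3l2 counts. The difference for this pair was -0.49 (exact permutation test, two-sided, p = 0.5, adjusted 0.5). It was -0.01 without MA-10 replicate 2 and -0.84 without MA-10 replicate 1.

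**Figure D3:**
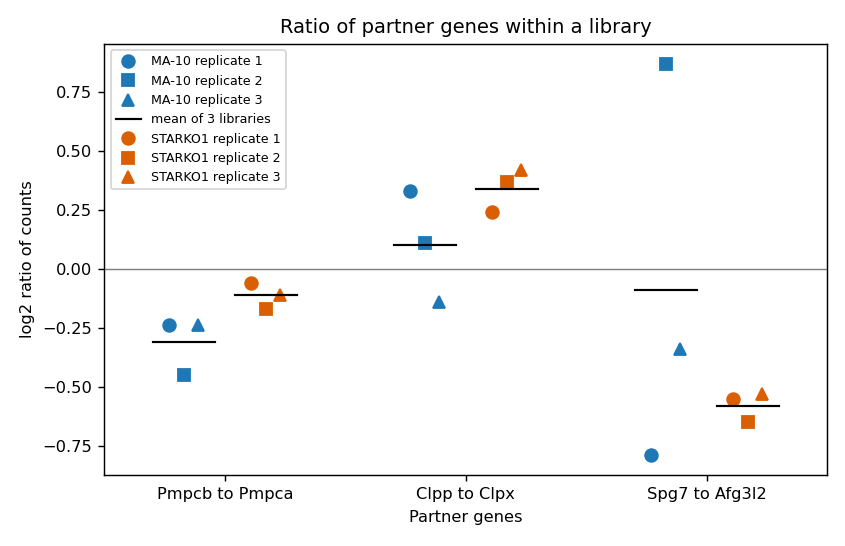
The log2 ratio of the counts of partner genes in each library, with blue symbols for MA-10, orange for STARKO1, shapes for the replicate number and black lines for the mean of 3 libraries. For Pmpcb to Pmpca all 3 STARKO1 libraries lie above the 3 MA-10 libraries, and for Spg7 to Afg3l2 the MA-10 libraries spread from -0.79 to 0.87.

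Other proteases of the organelle came from a list of 11 genes, of which 10 were tested and Immp2l had no row. Pitrm1, which encodes the peptidase that degrades cleaved targeting sequences, was the only one differentially expressed, against 9.04% of all genes tested. It had 273, 424 and 538 CPM in the MA-10 libraries and 182, 191 and 174 CPM in the STARKO1 libraries, with no overlap. Its log2 fold change was -1.17 (95% interval -1.82 to -0.53, standard error 0.273, edgeR adjusted p = 0.0462). Among the 6 fits that left out 1 library it passed the threshold only without MA-10 replicate 1 (adjusted p = 0.000108), and it also lost the call with 5 of the 7 alternatives that kept all 6 libraries. Of its 4787 exon bases, 748 are shared with Pfkp on the opposite strand.

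The lowest log2 fold change of that list was that of Mipep, the peptidase that removes an octapeptide after the first cleavage (-1.19, edgeR adjusted p = 0.0729). It was -0.67 without MA-10 replicate 3 and -1.36 without MA-10 replicate 1, and the adjusted p was 0.0029 in the latter fit (edgeR) and 0.0162 with DESeq2. The highest was that of Afg3l1, the paralog of Afg3l2, with 67.7, 37.9 and 28.2 CPM in the MA-10 replicates and 86.9, 90.8 and 84.8 CPM in the STARKO1 replicates. These groups did not overlap, and the log2 fold change was 0.97 (95% interval 0.21 to 1.73, edgeR adjusted p = 0.0834, and 6.05e-05 without MA-10 replicate 1). Afg3l1 lies 380 kb from Spg7 on chromosome 8. At an unadjusted p under 0.05, there were 6 of the 10 tested genes, 3 higher and 3 lower, against 37.6% of all genes.

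Of 6 genes for scaffolds and cofactors of the inner-membrane proteases, 0 were differentially expressed in edgeR's test, 3 were below an unadjusted p of 0.05 and 2 were differentially expressed with DESeq2. The shares over all genes were 9.04%, 37.6% and 28.4% in the same order. The highest log2 fold change was that of Phb2, a prohibitin that surrounds the matrix-facing AAA protease, with 0.73 (140 ± 48.2 CPM in MA-10 and 232 ± 6.09 CPM in STARKO1, SD over 3 libraries each, edgeR adjusted p = 0.0949). The lowest was that of Ghitm, an inner-membrane protein that interacts with AFG3L2, with -0.83 (515 ± 124 and 289 ± 17.1 CPM, SD, n = 3 each, edgeR adjusted p = 0.0650). Without MA-10 replicate 1 both passed the threshold, in the same directions.

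Of 14 genes for known substrates, Star alone, the targeted gene, was differentially expressed in edgeR's test, against 9.04% of all genes tested. The other 13 include Tfam, a substrate of LONP1, and Opa1, a substrate of YME1L1. The highest log2 fold change was that of Stard7, a phosphatidylcholine carrier that PARL cuts, with 0.46 (95% interval -0.04 to 0.97, edgeR adjusted p = 0.157). It was 0.78 without MA-10 replicate 1 (edgeR adjusted p = 0.000485). With DESeq2 3 of the 14 were differentially expressed, and 6 were below an unadjusted p of 0.05 in edgeR's test, all of them lower. Of all genes, 17.4% were lower with DESeq2 and 22.7% were lower at an unadjusted p under 0.05, and 28.4% and 37.6% differed in either direction.

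Of 7 genes for matrix chaperones, 0 were differentially expressed with edgeR, while 5 were below an unadjusted p of 0.05 and 5 were differentially expressed with DESeq2, all lower in STARKO1 cells. Over all genes 9.04% were differentially expressed with edgeR. The shares that were lower were 22.7% at an unadjusted p under 0.05 and 17.4% with DESeq2. In either direction these shares were 37.6% and 28.4%. The median log2 fold change of the list was -0.83, against -0.05 over all genes tested. The lowest value was that of Hspe1, the co-chaperonin, with 315, 3582 and 2167 CPM in the MA-10 libraries and 326, 320 and 325 CPM in the STARKO1 libraries. Replicate 1 of MA-10 was below the STARKO1 libraries, and MA-10 replicates 2 and 3 were far above. Its log2 fold change was -2.64 (95% interval -4.48 to -0.81, edgeR adjusted p = 0.0688). Hspd1, the chaperonin that works with it, had the highest value of the list, -0.02 (edgeR adjusted p = 0.960), with 1508 ± 281 CPM in MA-10 and 1489 ± 22.1 CPM in STARKO1 (SD over 3 libraries each). The sign of Hspd1 turned in 8 of 13 alternatives.

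**Figure D4:**
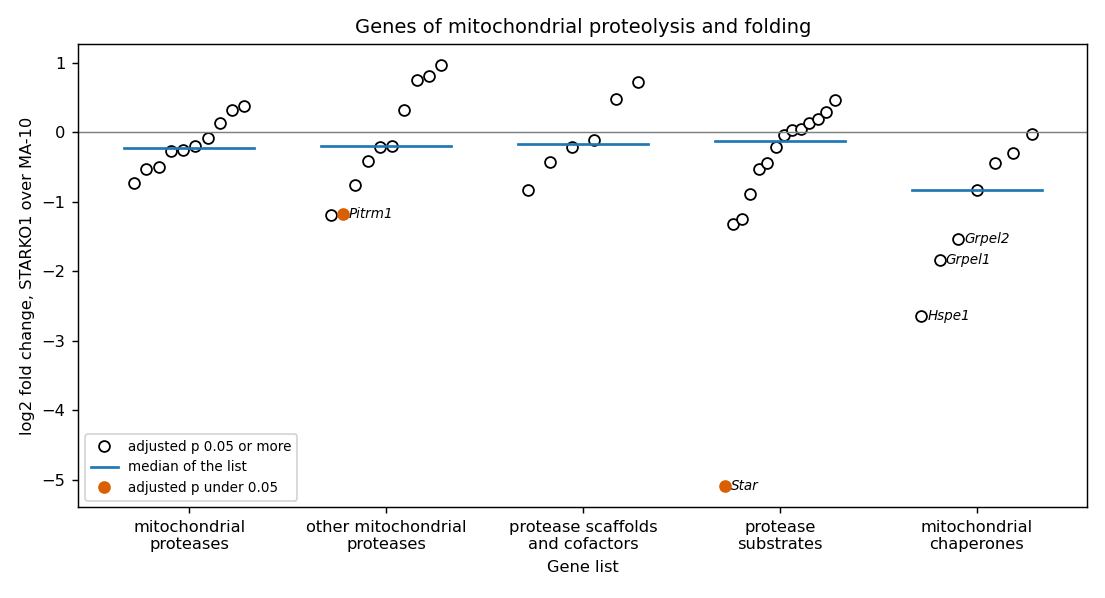
The log2 fold change (STARKO1 over MA-10, edgeR) of every tested gene in 5 lists, with blue lines for the median of each list and orange points for an adjusted p under 0.05. Only Pitrm1 and Star are orange, and genes beyond 1.5 in size are named.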

How the data were processed

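Total RNA of 3 MA-10 and 3 STARKO1 libraries was sequenced after preparation with a stranded kit for total RNA. The authors deposited estimated counts per gene, not scaled for library size and with replicates kept apart. The submitters' processing notes name STAR 2.6.1d and Partek as tools and mm10 as the build. The counting model and its use of strand are not given in the sources used here. Of the 14774 genes, 14677 were found in GENCODE M21 (GRCm38) by symbol and chromosome, and 14634 of these had the same start. The table's lowest total over the 6 libraries was 10 counts, and for 54.2% of genes at least 1 value was more than 1e-09 from a whole number.

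Differential expression was tested with edgeR 4.0.16 in R 4.3.3, after rounding of the estimated counts (filterByExpr, TMM, glmQLFit and glmQLFTest, Benjamini-Hochberg adjustment over all 11939 tested genes, threshold 0.05). Intervals at 95% come from the log2 fold change, its standard error (derived from the F statistic) and the test's degrees of freedom. Partner ratios were compared with exact permutation tests (scipy 1.17.1). The alternatives were DESeq2 1.42.0, upper quartile scaling, library size alone, other filters on low counts, a replicate block, gene length offsets and leaving out each library. At 14114351 or more counts per library, the spread between replicates limits the precision.

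The members and lists were chosen with earlier results of these data known. The genes named are the 10 proteases, Star, and in each other list the differentially expressed genes and those with the highest and lowest log2 fold change. Hsd3b1, Cdh5, Rhox5 and the genes named only as examples of a list or in the other observations were named after their values were seen.  Within a cell line, all pairs of libraries differed by more than the sampling noise. In simulated counts of 11764 genes, edgeR recovered 94.0% of 4-fold and 17.0% of 2-fold changes, and 2.63% of its calls were false. The simulation gave both cell lines the same spread and held no library like MA-10 replicate 1. In the real libraries the median coefficient of variation over all genes tested was 30% in MA-10 and 6.46% in STARKO1 cells. The simulated rates may therefore not hold for these libraries.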

Additional observations from a re-analysis of the deposited data

How the results depend on the processing

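Of the leave-one-out fits, the one without MA-10 replicate 1 gave the highest count in every list. Over all genes, 1079 were differentially expressed, against 3395 with DESeq2, 330 with scaling by library size alone, 695 with at least 10 counts in every library and 234 with the replicate block. Leaving out 1 library gave 89 (without STARKO1 replicate 1) to 7990 (without MA-10 replicate 1). Of the 10 proteases, 2 were differentially expressed with DESeq2, 0 with the replicate block and 0 to 5 in the leave-one-out fits. For the other proteases these numbers were 5 and 0 to 8, for scaffolds 2 and 0 to 4, for substrates 3 and 1 to 8, and for chaperones 5 and 0 to 6. Pitrm1, the only one of the other proteases called, was lost (0 called) with library size alone, upper quartile scaling, without the filter on low counts, with at least 10 counts in every library and with the replicate block, with log2 fold changes of -0.67, -1.0, -1.11, -1.14 and -1.12 and edgeR adjusted p values of 0.126, 0.052, 0.0506, 0.0518 and 0.105 in this order. The cause was not tested.

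The median log2 fold change of the 10 proteases, -0.22, was -0.09 with upper quartile scaling, 0.20 with library size alone, which moved the median of all genes by 0.43, and -0.14 with gene length offsets, and between -0.27 and -0.14 without 1 library. Directions turned with library size alone for Lonp1 (0.13), Clpp (0.17), Spg7 (0.43), Yme1l1 (0.22) and Hspd1 (0.47), and with upper quartile scaling for Spg7 (0.09) and Hspd1 (0.15). That of Hspd1 also turned with no filter (0.04), with at least 10 counts (0.01) and with gene length offsets (0.14). Leaving out 1 library gave -0.41 to 0.30 for Lonp1, -0.14 to 0.10 for Spg7 and -0.06 to 0.11 for Hspd1. The partner ratio differences kept their signs, at 0.13 to 0.23 for Pmpcb to Pmpca, 0.12 to 0.36 for Clpp to Clpx and -0.84 to -0.01 for Spg7 to Afg3l2. Of 130 values for the 10 proteases under alternatives, 115 kept their direction and their side of the threshold. The replicate block changed no other call among the genes named. The labels do not say that a replicate number marks a shared batch, and the deviations of same-numbered libraries from their group means correlated at -0.0346, 0.0907 and -0.0162. The paired differences of the ratios, 0.20, 0.24 and -0.49, equal the unpaired ones by construction, and exact sign-flip tests within pairs gave p = 0.25, 0.5 and 0.75, with 0.25 the smallest possible.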

Other observations

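Among the substrate genes, 3 genes named after their values were seen, Cox4i1, Mrpl32 and Smdt1, had the same order of MA-10 libraries as Hspe1, with replicate 1 lowest and replicate 2 highest. In all, 8 of the 14 substrate genes had this order, against 31.2% of all genes tested. The 8 include Star and the 3 genes named after their values were seen, so the comparison is a description and not a test. The share of 7SL RNA had this order as well (1.81%, 14.4% and 6.63% in replicates 1, 2 and 3), and its part in these values was not tested. Mrpl32, the ribosomal protein that the matrix-facing AAA protease matures, had 26.1, 93.9 and 68.3 CPM in the MA-10 libraries (replicates 1, 2 and 3) and 25.5, 25.1 and 25.3 CPM in the STARKO1 replicates. Smdt1, the calcium uniporter subunit that the same protease degrades, had 12.2, 56.1 and 31.2 CPM in the MA-10 replicates and 15.1, 12.7 and 14.0 CPM in the STARKO1 replicates. For Cox4i1, a cytochrome oxidase subunit, the values were 317, 898 and 636 CPM and 330, 336 and 331 CPM. None of the 3 was differentially expressed in edgeR's test, with adjusted p values of 0.0821, 0.119 and 0.129 for Mrpl32, Smdt1 and Cox4i1. With DESeq2 the adjusted p values were 0.0218, 0.0559 and 0.0747.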
